A study of Mus musculus with 6 samples.

Results

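The genes described here make and recycle glutathione or remove reactive oxygen, and their RNA was compared between newborn mouse lenses with a conditional mutation of AP-2alpha and lenses of wild-type littermates. The 10 enzymes listed by symbol were Gclc, Gclm and Gss for glutathione synthesis, Gsr for its recycling, Gpx1, Gpx4, Cat and Prdx6 for peroxide removal, Sod1 for superoxide removal, and Nqo1 for quinone reduction. Every probe set annotated to a single one of these symbols was taken, which gave 14 probe sets for 9 of the 10 genes, out of 22626 tested probe sets and 12393 genes on the array. Prdx6 had no such probe set here and was not analysed here.

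The groups were 3 arrays from Le-AP-2alpha conditional mutants and 3 arrays from wild-type littermates; the mutation is in Tfap2a (Tcfap2a in the labels), which encodes the transcription factor AP-2alpha. The design text calls the triplicates biological, but whether lenses of several animals were pooled is not stated, nor are the strain, the sex, the exons removed or the driver of the deletion. The series asks, by its title, about roles of AP-2alpha within lens cells, in the separation of the lens vesicle and in the upkeep of the epithelium. Values are log2 of the deposited array intensity, differences are mutant minus wild type, each with its standard error (SE) from a limma fit, and p-values were adjusted over all 22626 probe sets with a threshold of 0.05. The number of arrays limits the precision, and in whole lenses fewer cells of a type and less RNA per cell cannot be told apart.

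Glutathione is a tripeptide that the lens holds at high concentration, where it keeps the thiols of crystallins reduced and serves the enzymes that destroy hydrogen peroxide. Glutamate-cysteine ligase, made of the catalytic subunit Gclc and the modifier subunit Gclm, carries out the rate-limiting step, glutathione synthetase (Gss) adds glycine, and glutathione reductase (Gsr) turns the oxidised dimer back into glutathione with NADPH. Lens epithelial cells and young fibres do most of this work, and loss of lens glutathione is a known feature of cataract. The transcription factor NRF2 induces several of these genes through a short DNA sequence, the antioxidant response element.

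Promoters from the RefSeq table of the GRCm38.p6 build matched 7 of the 10 genes (Cat, Gclm, Gpx1, Gpx4, Gss, Nqo1 and Sod1). The 250 bases before each listed start were searched on both strands for the core of the antioxidant response element, TGANNNNGC, and for the stricter TGACNNNGC, which lies within it. Both were found in 2 of the 7 genes, Gclm and Sod1, and at the same place, against 38.7% of all 27025 genes for the first and 11.5% for the second. By window of this length the shares were 35.2% and 10.2% of 32851. A match is only a match of letters. Bases farther upstream were not searched, so a gene without a match here may have one there. These promoters are shown with the core in capitals, Gclm at chr3:122245307-122245556 on the plus strand and Sod1 at chr16:90220512-90220761 on the plus strand, beside that of Cat at chr2:103485154-103485403 on the minus strand, which has no match and belongs to the gene whose groups did not overlap.
Gclm: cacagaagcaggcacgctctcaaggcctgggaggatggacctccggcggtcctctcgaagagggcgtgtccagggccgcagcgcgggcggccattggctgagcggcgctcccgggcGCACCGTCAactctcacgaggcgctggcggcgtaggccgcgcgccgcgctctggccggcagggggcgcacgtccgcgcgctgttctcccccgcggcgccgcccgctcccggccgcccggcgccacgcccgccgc
Sod1: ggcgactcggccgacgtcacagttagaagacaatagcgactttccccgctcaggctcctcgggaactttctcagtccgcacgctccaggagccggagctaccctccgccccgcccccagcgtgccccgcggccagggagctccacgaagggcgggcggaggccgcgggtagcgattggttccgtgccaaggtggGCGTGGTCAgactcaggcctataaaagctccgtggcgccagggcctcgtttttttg
Cat: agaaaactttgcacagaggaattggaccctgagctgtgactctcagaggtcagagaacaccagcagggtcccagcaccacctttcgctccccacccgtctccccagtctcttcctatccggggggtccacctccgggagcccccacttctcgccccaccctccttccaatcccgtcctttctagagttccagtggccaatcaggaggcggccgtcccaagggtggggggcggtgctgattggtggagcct

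One array touches most of the results. Pearson's r over all probe sets was 0.926 to 0.945 between wild-type replicate 1 and any other array, and 0.974 to 0.985 between pairs of the other 5. Among the 9 genes it held the highest value of the 6 arrays for 4 and the lowest for 2, and over all genes it held the highest for 33.0% and the lowest for 25.8%. Each member's difference is therefore given with and without it. The targeted gene did not check the labels: the brightest Tfap2a probe set read 9.57, 9.64 and 9.83 in mutants, against 8.36, 9.26 and 9.56 in wild types. All 3 Tfap2a probe sets had higher means in the arrays labelled mutant, by 0.62 ± 0.33, 1.57 ± 0.49 and 0.36 ± 0.36, and no source used here places these probes relative to the deletion. The crystallin Cryaa, a lens marker, was at 13.63 to 13.76 in mutants and 13.67 to 13.81 in wild types. These values lie near the top of the range, where differences can be compressed.

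None of the 14 probe sets passed the threshold: limma called 0 of 14, and 0% of all 22626 probe sets, with an adjusted p of 0.999 for each of the 14. At an unadjusted p under 0.05 there was 1 of the 9 genes (Cat), against 3.28% of all probe sets and 3.85% of all genes. Values were lower in mutants for 7 of the 9 genes and higher for 2, with a median difference of -0.22. Over all 12393 genes 52.2% were lower, with a median difference of -0.01. Without wild-type replicate 1 the count was again 7 of 9, with a median of -0.13 and a median of 0.00 over all genes, but Gsr and Nqo1 had moved to the lower side and Gss and Gpx4 to the higher.

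**Figure D1:**
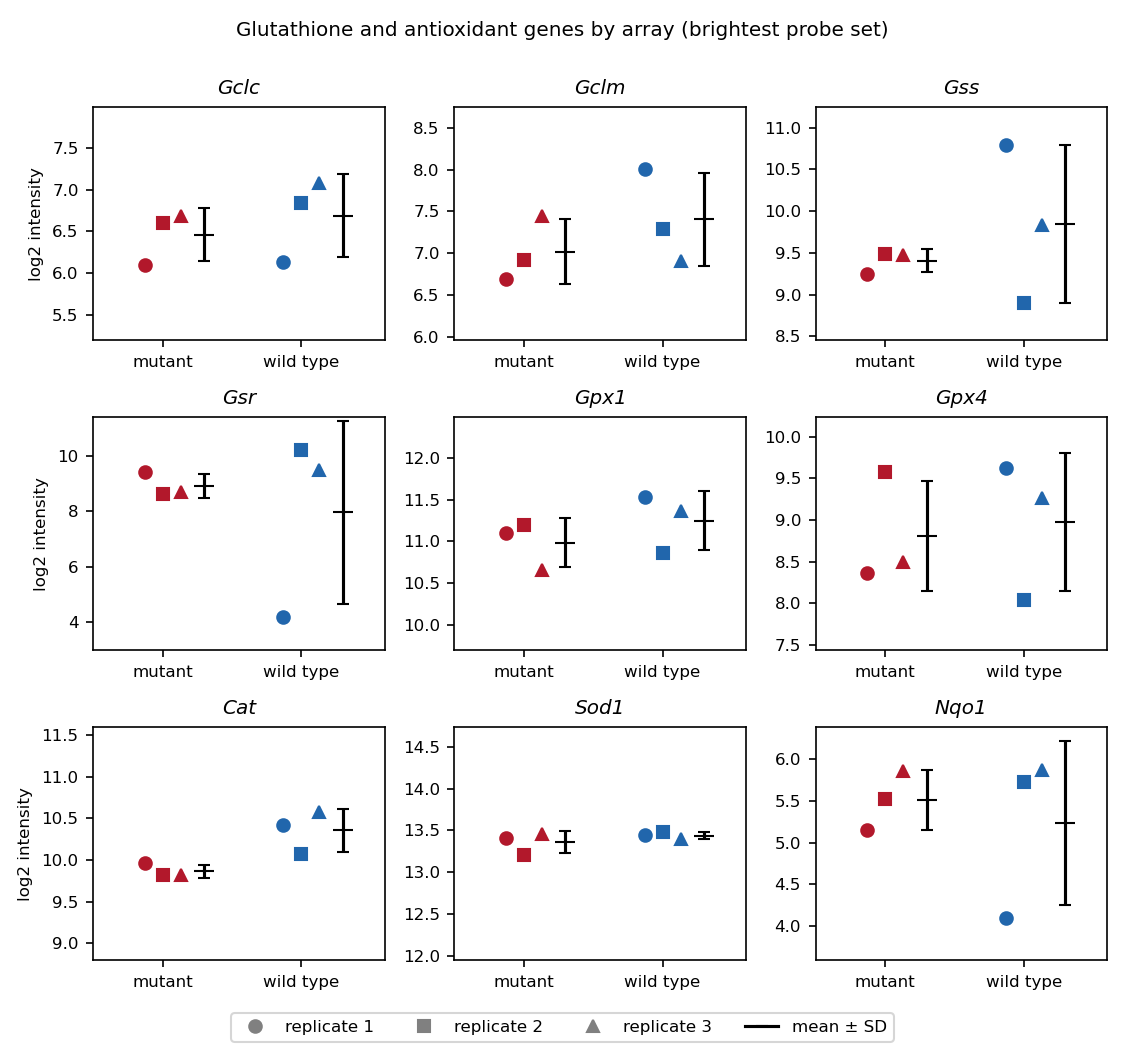
Log2 intensity of the brightest probe set of each of the 9 genes on each array, mutants left and wild types right, with the group mean and SD beside the points. Each panel has its own scale; the groups are apart only for Cat, and wild-type replicate 1 (blue circle) lies far below the other arrays for Gsr (4.19) and Nqo1 (4.10).

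Catalase, the peroxisomal enzyme that splits hydrogen peroxide into water and oxygen, was the one member whose groups did not overlap. Its brightest probe set (1416429_a_at) read 9.96, 9.83 and 9.82 in mutants, against 10.42, 10.07 and 10.57 in wild types. All mutants lay below all wild types, a separation also seen, in this direction, for 4.58% of all genes. The difference was -0.49 ± 0.20 (SE), which is 1.4-fold higher in wild types, with a 95% interval of -0.97 to -0.01 and a limma adjusted p of 0.999. Without wild-type replicate 1 it was -0.45 ± 0.22. The second Cat probe set (1416430_at), dimmer than the median probe set, read 4.71, 4.90 and 4.28 in mutants, against 4.19, 5.61 and 5.42 in wild types. The groups overlapped through wild-type replicate 1, which stood 0.10 above the mean of the other wild types on the first probe set and differed from it by -1.32 on the second. The second probe set had a difference of -0.44 ± 0.41 over all arrays and -0.88 ± 0.24 without that array (limma adjusted p = 0.766).

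Catalase is abundant in red blood cells, whose markers were measured too. Of 5 measured red blood cell genes 3 were higher in mutants, with summed intensities of 38.2 to 343 in mutants and 33.4 to 204 in wild types. The sums were highest in mutant replicate 1 and wild-type replicate 1. So were Alas2, the first enzyme of haem synthesis in red cells, and Slc4a1, their anion exchanger, both singled out after their values were seen. Both genes are part of the sums, with intensities of 203 and 120 in mutant replicate 1 and of 127 and 50.8 in wild-type replicate 1. Their likeness to the sums is therefore no separate evidence. Alas2 read 7.67, 3.24 and 5.92 in mutants, against 6.99, 3.63 and 2.76 in wild types, and Slc4a1 read 6.90, 2.88 and 4.60 in mutants, against 5.67, 3.30 and 2.91 in wild types. The other listed genes were low and did not share this pattern. Epb42 read 2.76, 2.82 and 2.96 in mutants, against 3.12, 3.08 and 2.92 in wild types. Klf1 read 2.95, 2.97 and 2.85 in mutants, against 2.91, 2.52 and 2.54 in wild types. The haemoglobin chain Hba-a1 was at 2.50 to 3.24 on all arrays, near the floor of the array. The part of red blood cells in the Cat values was not tested.

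Glutathione reductase had the widest spread of the members, and 1 array set its direction. The brightest Gsr probe set (1421817_at) had intensities of 685, 396 and 415 in mutants, against 18.2, 1180 and 722 in wild types. On the log2 scale these were 9.42, 8.63 and 8.70 in mutants and 4.19, 10.21 and 9.50 in wild types. Wild-type replicate 1 differed by -5.67 from the mean of the other wild types, a gap as deep as in 2 other genes of 12393, Sat1 and Bpnt1, which were picked out after their values were seen. The difference was 0.95 ± 1.51 with all arrays, with a 95% interval of -2.67 to 4.57, and -0.94 ± 0.34 without that array, where all mutants lay below both wild types (limma adjusted p = 0.874). The second Gsr probe set (1421816_at) was at 2.86, 2.44 and 2.56 in mutants, against 2.97, 3.47 and 2.57 in wild types, brighter than only 12.3% of probe sets. It lies near the floor of the array and so could not show a gap like that of the first probe set.

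**Figure D2:**
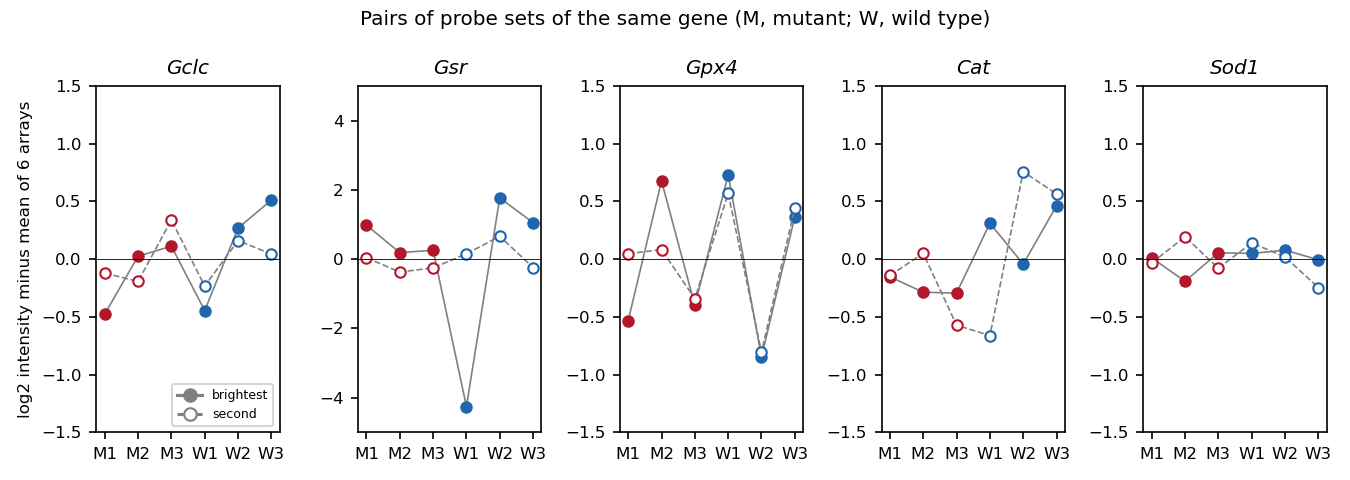
Log2 intensity minus the mean of the 6 arrays for the 5 genes with 2 probe sets, mutant arrays in red and wild-type arrays in blue, filled for the brightest probe set and open for the second. The axis of Gsr spans a wider range than the others; the 2 probe sets of Gpx4 share their 3 highest arrays, while those of Cat part at wild-type replicate 1.

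The subunits of glutamate-cysteine ligase did not differ beyond the spread of the arrays. Gclc, the catalytic subunit, read 6.10, 6.60 and 6.69 in mutants, against 6.13, 6.84 and 7.09 in wild types on its brightest probe set (1455959_s_at). The lowest mutant and wild-type replicate 1 were at nearly the same value, so the groups overlapped (difference -0.22 ± 0.31). It was -0.50 ± 0.25 without wild-type replicate 1, with the mutants below both remaining wild types (limma adjusted p = 0.932). Its second probe set (1424296_at) differed by 0.02 ± 0.22, and by -0.09 without that array. The suffixes _s_at and _x_at mark probe sets that can also bind related transcripts, which applies to the brightest probe sets of Gclc and Gpx4.

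Gclm, the modifier subunit that raises the ligase's affinity for glutamate, read 6.69, 6.92 and 7.45 in mutants, against 8.01, 7.29 and 6.91 in wild types. Wild-type replicate 1 was the highest array and wild-type replicate 3 lay among the mutants. The difference was -0.38 ± 0.35 with all arrays and -0.08 ± 0.28 without wild-type replicate 1. Whether the subunits changed unequally was asked within each array: Gclm minus Gclc was 0.59, 0.32 and 0.76 in mutants, against 1.89, 0.44 and -0.17 in wild types. The wild types spanned the mutants, and the means differed by -0.16 (two-sided exact permutation p = 0.9, n = 3 each, where the smallest possible p is 0.1). Without wild-type replicate 1 the value turned to 0.42 (exact permutation p = 0.4).

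Glutathione synthetase was narrow in mutants and wide in wild types. Gss read 9.24, 9.49 and 9.48 in mutants, against 10.80, 8.90 and 9.83 in wild types. Wild-type replicate 1 was the highest array and wild-type replicate 2 the lowest, with the mutants between them. The mutant SD was 0.14 and the wild-type SD 0.95, and the difference was -0.44 ± 0.46 with all arrays and 0.04 ± 0.30 without wild-type replicate 1. The wider spread was not particular to Gss. On the brightest probe sets every member but Sod1 (SD 0.13 in mutants, 0.04 in wild types) had the larger SD in wild types. These wild-type SDs include wild-type replicate 1, and SDs without that array are not given. The share of all genes with the larger SD in wild types was not counted, so this is not read as a trait of the members.

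**Figure D3:**
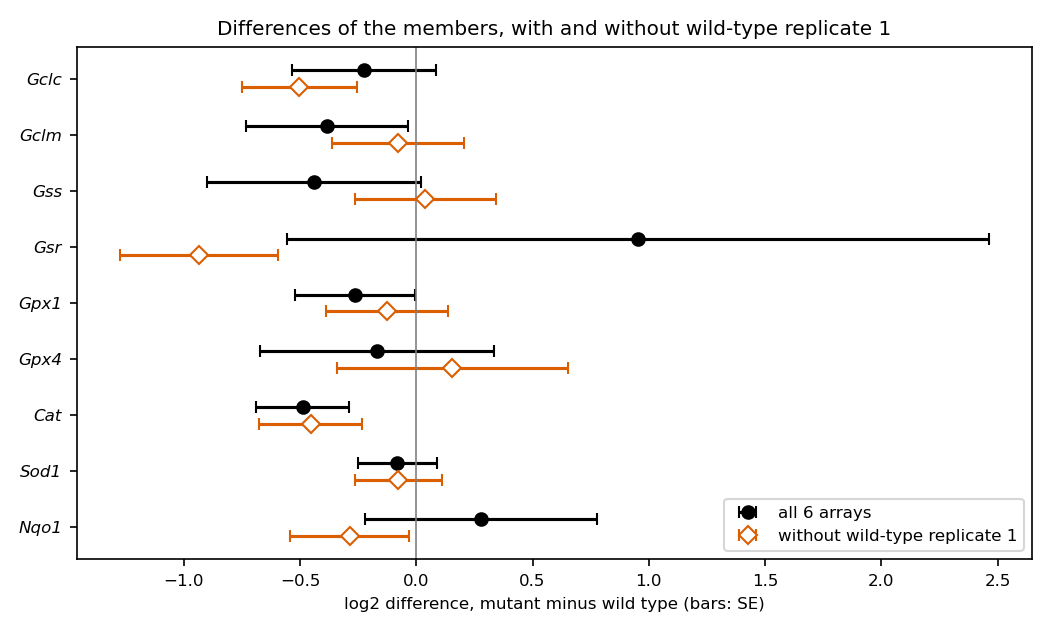
Log2 difference of each gene's brightest probe set, mutant minus wild type, with the SE of the limma fit, over all 6 arrays (black) and without wild-type replicate 1 (orange). Cat and Sod1 keep nearly the same value in both fits, Gsr is at 0.95 in the first fit and -0.94 in the second, and Gss, Gpx4 and Nqo1 also cross 0.

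The glutathione peroxidases use glutathione to reduce peroxides, Gpx1 in the cytosol and mitochondria and Gpx4 on the lipids of membranes; both are selenoproteins. Gpx1 (1460671_at) read 11.10, 11.20 and 10.66 in mutants, against 11.53, 10.86 and 11.36 in wild types, among the brightest 3.54% of probe sets. The groups overlapped, with a difference of -0.26 ± 0.26, and of -0.13 ± 0.26 without wild-type replicate 1. Gpx4 read 8.36, 9.57 and 8.50 in mutants, against 9.63, 8.05 and 9.26 in wild types on its brightest probe set (1456193_x_at). Mutant replicate 2 stood with wild-type replicates 1 and 3 at the high end, and wild-type replicate 2 was lowest. The difference was -0.17 ± 0.50, and 0.16 ± 0.50 without wild-type replicate 1.

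The second Gpx4 probe set (1451695_a_at) read 6.62, 6.66 and 6.23 in mutants, against 7.15, 5.77 and 7.02 in wild types, a difference of -0.14 ± 0.39. Its 3 highest arrays were those of the first, and its lowest was the same. A sign of RNA quality was set beside the peroxidases: the 3' to 5' log2 difference of the Gapdh and actin control probe sets was 1.43, 1.77 and 1.001 in mutants, against 1.30, 0.98 and 1.68 in wild types. The arrays with the lowest control values, mutant replicate 3 and wild-type replicate 2, were also the 2 lowest for Gpx1 and for the second Gpx4 probe set. They were not the 2 lowest for the brightest Gpx4 probe set, where mutant replicate 1 (8.36) lay below mutant replicate 3 (8.50). With the 3' to 5' control as a covariate the difference was -0.32 ± 0.22 for Gpx1 and -0.28 ± 0.40 for Gpx4. Without the covariate these were -0.26 ± 0.26 and -0.17 ± 0.50. The likeness between the control values and the peroxidase values was not tested, nor was the part of RNA quality in them.

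Superoxide dismutase and the quinone reductase completed the set. Sod1, the cytosolic copper-zinc enzyme that turns superoxide into hydrogen peroxide, read 13.41, 13.21 and 13.45 in mutants, against 13.45, 13.48 and 13.39 in wild types on its brightest probe set (1451124_at). It was the steadiest member, with a difference of -0.08 ± 0.17 and a 95% interval of -0.49 to 0.33, and -0.08 ± 0.19 without wild-type replicate 1. The highest probe set on an array was at 13.90 to 13.97, and differences so near the top of the range can be compressed. The second Sod1 probe set (1435304_at), at 6.69 to 7.13, differed by 0.06 ± 0.19.

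Nqo1, a classical NRF2 target that reduces quinones with NADPH or NADH, read 5.15, 5.53 and 5.86 in mutants, against 4.10, 5.72 and 5.88 in wild types (1423627_at). Its mean level was close to that of the median probe set. Wild-type replicate 1 was the lowest array, and the other wild types lay at the upper end of the mutants, with the highest mutant between them. The difference was 0.28 ± 0.50 over all arrays and -0.29 ± 0.26 without that array.

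Without wild-type replicate 1, mutants lay below both remaining wild types for 3 of the 9 genes (Cat, Gclc and Gsr) and above both for 0. Over all genes these shares were 10.8% in each direction. The array stood 1 or more from the mean of the other wild types for 3 of the 9 genes (Gsr, Nqo1 and Gss), against 23.8% of all genes.

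The wider redox genes were listed in 6 groups with 67 of 78 genes measured, and 0 passed the threshold in either direction, against 0% of all genes. Values were lower in mutants for 40 and higher for 27, with a median difference of -0.09, and the groups did not overlap for 6 of the 67, against 8.8% of all genes. Without wild-type replicate 1, 38 of the 67 were lower, with a median of -0.02. The 6 genes with separate groups were Ggct, Srxn1, Abcc1, Eefsec, the dim Chac2 (0.68 ± 0.34) and Txn2 (-0.22 ± 0.18), the last pair named only for that separation and at 0.31 and -0.10 without that array. Over all genes 52.2% were lower with all arrays and 49.4% without that array. Among glutathione precursor and turnover genes 9 of 14 were lower, but 5 of 14 without that array, where the list median was 0.03 against -0.08 with all arrays. The lowest p in all the lists of redox genes was that of Ggct, gamma-glutamylcyclotransferase, which cleaves gamma-glutamyl peptides released from glutathione. It read 10.14, 10.11 and 10.66 in mutants, against 11.29, 11.39 and 11.43 in wild types, with every mutant below every wild type. The difference was -1.07 ± 0.21, or 2.1-fold higher in wild types, and -1.11 without wild-type replicate 1, with a limma adjusted p of 0.928. Slc1a1, a glutamate and cysteine transporter, had the next lowest p within the precursor and turnover list and differed by 0.85 ± 0.38, or 0.48 without that array.

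Of the thioredoxin, glutaredoxin and methionine sulphoxide repair genes 9 of 13 had higher values, but without wild-type replicate 1 the majority turned, with 7 of 13 lower and a median of -0.01. Srxn1, the sulfiredoxin that repairs overoxidised peroxiredoxins, read 8.34, 8.70 and 8.35 in mutants, against 8.05, 8.26 and 7.68 in wild types, with the groups apart and a difference of 0.47 ± 0.23. Glrx, which reduces disulphides between proteins and glutathione, differed by 0.66 ± 0.32, or 0.37 without wild-type replicate 1. Among the other peroxidases and dismutases 7 of 10 were lower, but 4 of 10 without that array, where the median was 0.08 against -0.06 with all arrays. The lowest p was that of Ccs, the copper chaperone of Sod1, at -0.61 ± 0.41 (-0.24 without that array), followed by the dim Gpx2 at -0.21 ± 0.22 (-0.04 without that array). In the NADPH supply 6 of 9 were lower, with or without that array, and the pentose phosphate enzymes Pgd and Pgls differed by -0.61 ± 0.37 and -0.66 ± 0.63 (-0.37 and -0.45 without that array).

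Of 15 genes of NRF2 control and other NRF2 targets 10 were lower, and 13 without wild-type replicate 1. Abcc1, an exporter of glutathione conjugates, read 6.62, 6.78 and 6.50 in mutants, against 7.23, 7.03 and 7.20 in wild types, with the groups apart and a difference of -0.52 ± 0.18 (limma adjusted p = 0.999). Hmox2, the constitutive haem oxygenase, differed by -0.33 ± 0.21. In selenoprotein synthesis 4 of 6 were lower, and 3 of 6 without wild-type replicate 1, with a median of -0.01. Eefsec, the elongation factor that brings selenocysteine to the ribosome, read 5.06, 5.03 and 4.95 in mutants, against 6.56, 5.10 and 6.27 in wild types, a difference of -0.97 ± 0.39 that was -0.68 without wild-type replicate 1. Sephs1, a relative of the enzyme that makes selenophosphate, differed by 0.67 ± 0.44, or 0.16 without that array.

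**Figure D4:**
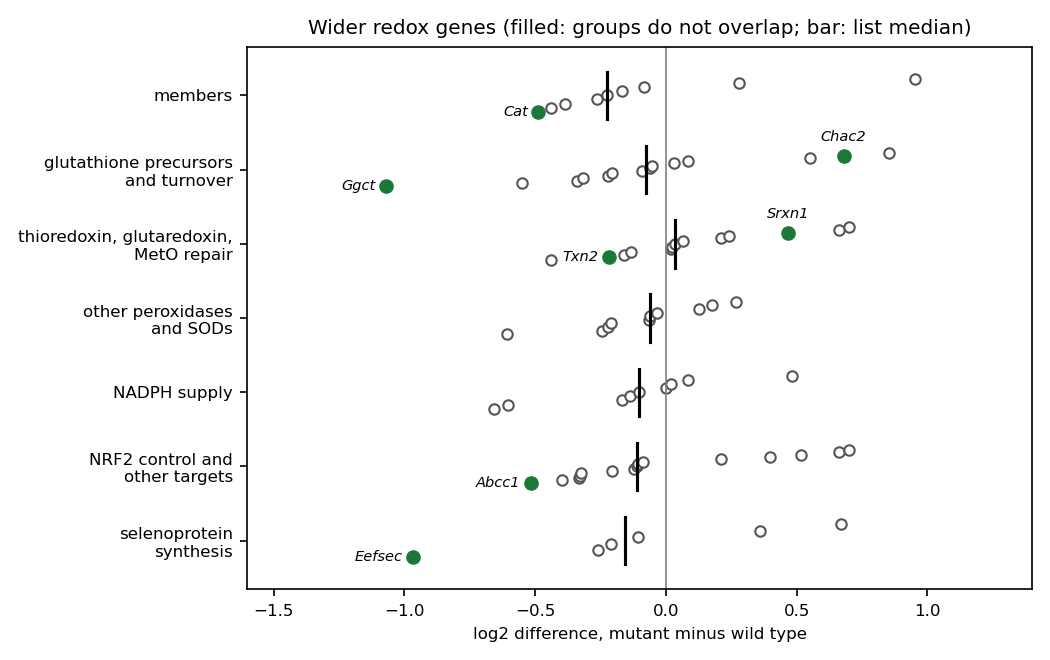
Log2 difference, mutant minus wild type, of the 9 members and the 67 wider redox genes by list, 1 point a gene, spread vertically for legibility, filled and named where the groups do not overlap, with a bar at the list median. Points lie on both sides of 0 in every list, and Ggct (-1.07) and Eefsec (-0.97) are farthest to the left.

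The patterns of 5 genes across the 6 arrays were most like that of Cat, the member of lowest p, by the root mean square difference of log2 values after each gene was centred on its own mean, among 6762 genes brighter than the median probe set. This difference was 0.0457 for Arl16, 0.0934 for Chmp3, 0.0969 for Mvk, 0.0985 for the mitochondrial gene ND5 and 0.114 for Bmp1, where the Cat profile itself has a size of 0.29. Each of these genes had every mutant below every wild type, as the choice by likeness to Cat makes likely.

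Markers of other cells were measured on the same arrays, and 0 of them passed the threshold. Of the neuron markers 9 of 9 were higher in mutants, with summed intensities of 2366 to 3312 in mutants and 514 to 1538 in wild types, and Elavl3 (1.36 ± 0.24) and Gap43 (1.73 ± 0.45) had the lowest p. Of the macrophage markers 14 of 15 were higher, with sums of 1039 to 4237 in mutants and 1027 to 1231 in wild types, the highest of all in mutant replicate 2, and Ptprc and Cd68 at 1.08 ± 0.36 and 0.90 ± 0.37. Of the pigment cell markers 4 of 4 were higher, with sums of 586 to 782 in mutants and 342 to 511 in wild types, and Pmel and Dct at 0.74 ± 0.24 and 1.05 ± 0.39. Endothelial markers were lower for 4 of 7, with sums of 1138 to 1648 in mutants and 1277 to 1922 in wild types, and Pecam1 and Cldn5 at -0.49 ± 0.35 and -0.58 ± 0.44. Lens markers were lower for 8 of 10, with sums of 60394 to 75211 in mutants and 65774 to 85193 in wild types, and Bfsp1 and the dim Foxe3 at -0.65 ± 0.22 and -0.71 ± 0.29. In the red blood cell list Klf1 and Epb42 had the lowest p, at 0.27 ± 0.19 and -0.19 ± 0.17. Without wild-type replicate 1 the counts higher in mutants were 8 of 9 for neurons, 14 of 15 for macrophages and 4 of 4 for pigment cells, and all 10 lens markers were lower. No marker was listed at 0. The part of these cells in the values of the redox genes was not tested.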

How the data were processed

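Labelled material from total RNA of newborn lenses, amplified with a Nugen Ovation system per the labels, was hybridised to 1 array per sample. The deposited values are probe set intensities on a linear scale. RMA, which corrects background, normalises by quantiles and summarises probes, was used per the submitters' processing notes, which give no version or settings; how its usual log2 values became linear is not stated there. These steps can compress differences of dim probe sets.

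Log2 was taken with no pseudocount, and 64 control probe sets were left out. R 4.3.3 with limma 3.58.1 (lmFit, eBayes, no covariate) fitted all probe sets, and two-sided p-values were Benjamini-Hochberg adjusted. The fit was tested on simulated data. Genes were named through the platform annotation and Entrez IDs (20351 of 20380 probe sets with 1 symbol matched, 0 symbols changed; 691 had several symbols, 1555 none) and represented by their brightest probe set; dim means below the median level of 5.26. No genome build was given for the probes, so probe positions are not reported.

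The members and lists were chosen with earlier results of these data known. The text names all members, the 2 genes of lowest p per list where none passed, and the 5 genes most like the member of lowest p; Chac2 and Txn2, labelled in the plot of wider redox genes, were added after their values were seen because their groups did not overlap. Alternatives were a block for the replicate number, other scalings, filters, priors, weights, a 3' to 5' covariate, a pseudocount, averaging the probe sets of each gene and leaving out arrays. A member's sign within 1 SE of 0 was read as no direction when alternatives were compared. 0 columns of sample values were left out.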

Additional observations from a re-analysis of the deposited data

How the results depend on the processing

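For the 14 probe sets of the members, limma called 0 under every alternative run, as with all arrays. Over all probe sets it called 0 (742 at an unadjusted p under 0.05) and 7 with array weights (3397 at an unadjusted p under 0.05), none of them a member; wild-type replicate 1 then weighed 0.224 and wild-type replicate 3 5.65. Leaving out single arrays gave 0 calls each time, for members, for wider redox genes and for all probe sets. With the replicate number as a block, the count of calls was 0 for members, wider redox genes and all probe sets, and no call changed. The numbers were not used as pairs in the main fit. Deviations from the group means correlated at -0.07, -0.26 and -0.16 between same-numbered arrays. The deviations of the 3 arrays in a group are tied to each other, so these values do not settle whether the numbers mark pairs. Over 16 alternatives, differences ran from -0.66 to -0.38 for Cat, from -0.94 to 2.07 for Gsr, from -0.58 to -0.02 for Gclc, from -0.63 to 0.03 for Gclm, from -0.91 to 0.04 for Gss, from -0.46 to -0.10 for Gpx1, from -0.64 to 0.16 for Gpx4, from -0.30 to 0.60 for Nqo1 and from -0.14 to -0.0032 for Sod1. Counted by plain sign, whatever the SE, Cat, Gclc, Gpx1 and Sod1 kept their side of 0 in all 16. By the same count Gsr and Nqo1 turned in 3 each, Gpx4 in 2, and Gclm and Gss in 1 each, where the cause was not tested. When a sign within 1 SE of 0 was read as no direction, no member turned under any alternative. By that rule 6 of the 9 members could not turn, since their differences with all arrays lay within 1 SE of 0. Gsr was among these, at 0.95 ± 1.51 with all arrays and -0.94 ± 0.34 without wild-type replicate 1. The lowest adjusted p of a member was 0.218, for Cat with array weights. Gclm minus Gclc was -0.28 with probe sets averaged per gene, and -0.61 to 0.42 when single arrays were left out, positive only without wild-type replicate 1.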
